A study of Mus musculus with 6 samples.

Results

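The 46 genes described here encode the machinery that copies DNA in S phase and the regulators that open it. They were chosen by name for their known roles, at a time when earlier results of these data were known. All 46 were found among the 23951 genes of the expression table, and all 46 passed the filter on low values, which asked for at least 1 FPKM in at least 2 of the 6 libraries. FPKM, or the fragments counted for each kilobase of a transcript in every 1000000 mapped reads, is a level per length. Comparisons of levels between genes are limited by stretches of sequence that genes share, and those between libraries by the scaling, and both are given below. Polyadenylated RNA was sequenced from 3 mouse melanoma lines grown in culture without treatment, with 2 libraries for each line. B16-F1 was the parental line with low metastatic potential and came from a cell repository (ATCC). B16-F1R2 was derived from a lymph node metastasis, and B16-F1R2L from a lung metastasis that itself arose from a lymph node metastasis. B16-F1R2 came from a laboratory at ETH Zurich, so that line and source cannot be told apart. The authors' methods name no source for B16-F1R2L. The 3 are also called the parental, the lymph node and the lung line below. All lines were grown in the same high-glucose medium with fetal bovine serum. Each variant was 1 cell line, and separate cultures for the 2 libraries of each line are not stated in the labels, so that p-values measured only the spread between these libraries, which may be technical.

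Replication begins when the origin recognition complex (ORC), with Cdc6 and Cdt1, loads the MCM2-7 helicase onto origins in G1. In S phase Cdc45 and the GINS complex switch the helicase on, primase and the DNA polymerases copy the strands, and the PCNA ring, set in place by replication factor C, keeps the polymerases on the template. Many of these genes are known targets of the E2F transcription factors, which cyclin D and cyclin E kinases release from the retinoblastoma protein, and their mRNAs peak around the G1/S transition in cycling cells.

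The letters of E2F-type sites were searched for in the promoters, since E2F is the regulator best known for these genes. RefSeq promoter windows on the build GRCm38.p6, from 250 bases before to 50 bases after the start site, were at hand for 37 of the 46 members. Matches to TTTGGCGC, TTTCCCGC, TTTGCCGC or TTTCGCGC on either strand were present in 13 of these 37 genes (35.1%), compared with 2.60% of the 27025 genes with a window. The 13 were Orc1, Cdc6, Cdt1, Mcm3, Mcm5, Mcm6, Mcm7, Gins3, Rfc3, Pola1, Pold1, Pole2 and Lig1. CCAAT, the letters bound by the factor NF-Y, occurred on either strand in 23 of the 37 (62.2%) and in 41.1% of all genes. TTTGAA, the core of the cell cycle homology region known from mitotic genes, occurred in 4 of the 37 (10.8%), in 20.2% of all genes and in 19 of 27 genes (70.4%) of a list of mitosis and G2/M genes. The same list held an E2F-type match in 1 of its 27 genes. None of these motifs contains another, but E2F-type matches on opposite strands can overlap, as in Mcm5 and Mcm6. A match describes letters and not a bound site.

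The stretches of the MCM genes are shown because the subunits of this complex differed both in these matches and in their changes. Each runs 5′ to 3′ on the gene's own strand, from position -170 to position -21 relative to the RefSeq start site, with E2F-type and CCAAT matches that lie whole within it in capitals. They lie at chr6:88898801-88898950, minus strand (Mcm2), chr1:20820333-20820482, minus strand (Mcm3), chr8:75109339-75109488, plus strand (Mcm5), chr1:128359726-128359875, minus strand (Mcm6), and chr5:138171904-138172053, minus strand (Mcm7), all on GRCm38.p6. Mcm4 had no window in the table.
Mcm2: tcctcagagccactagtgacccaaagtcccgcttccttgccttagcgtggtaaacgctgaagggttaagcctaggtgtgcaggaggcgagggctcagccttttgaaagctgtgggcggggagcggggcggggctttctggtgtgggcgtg
Mcm3: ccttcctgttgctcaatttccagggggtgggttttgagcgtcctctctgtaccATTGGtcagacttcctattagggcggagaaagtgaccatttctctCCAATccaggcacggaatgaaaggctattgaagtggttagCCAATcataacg
Mcm5: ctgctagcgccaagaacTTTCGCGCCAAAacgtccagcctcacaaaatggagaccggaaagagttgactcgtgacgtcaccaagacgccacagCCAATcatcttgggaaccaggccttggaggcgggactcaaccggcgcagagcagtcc
Mcm6: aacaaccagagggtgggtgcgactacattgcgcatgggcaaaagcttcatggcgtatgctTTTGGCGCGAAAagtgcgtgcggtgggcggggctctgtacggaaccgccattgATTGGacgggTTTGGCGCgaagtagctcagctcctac
Mcm7: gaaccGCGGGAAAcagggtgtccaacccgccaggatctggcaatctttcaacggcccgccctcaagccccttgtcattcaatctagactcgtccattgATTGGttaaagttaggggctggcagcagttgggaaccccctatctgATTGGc
Mcm6 had 3 E2F-type matches in its window, Mcm5, Mcm7 and Mcm3 had 2 each, and Mcm2 had none. In Mcm3 they lay after the start site, in this stretch from 18 to 47 bases after it (chr1:20820266-20820295, minus strand).
Mcm3, after the start site: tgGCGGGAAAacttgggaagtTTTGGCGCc

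**Figure D1:**
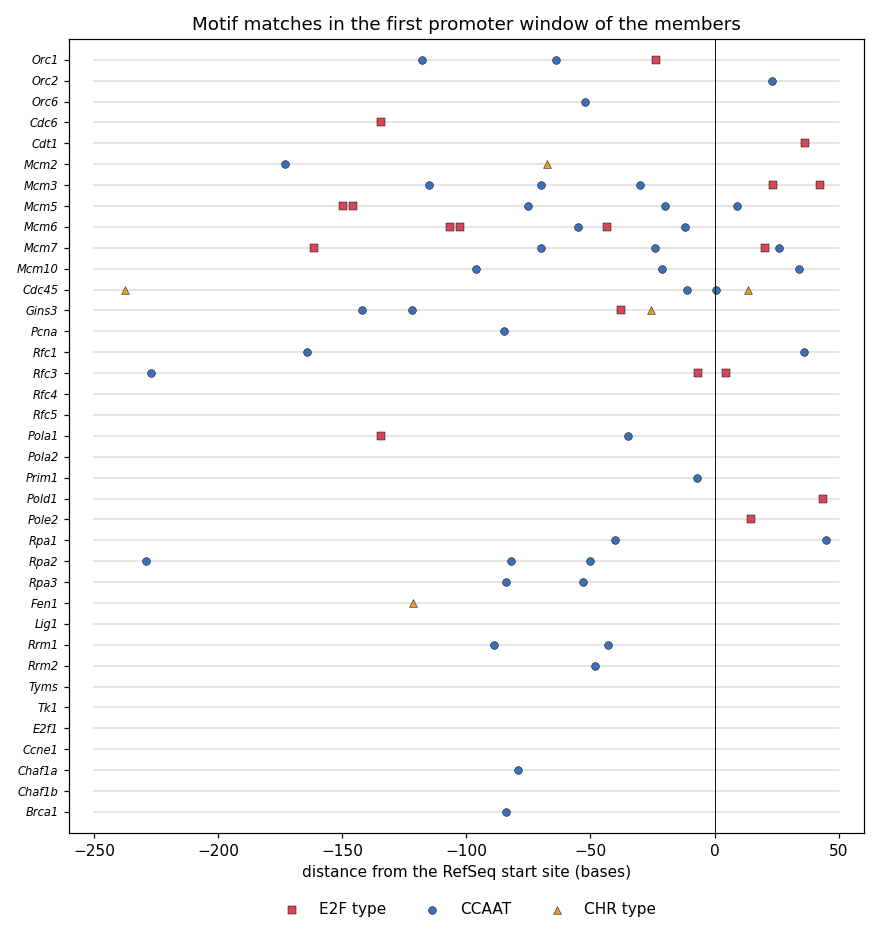
Motif matches in the first RefSeq promoter window of the 37 members that have one, by distance in bases from the start site (horizontal axis) and by gene (vertical axis). Squares are E2F-type, circles CCAAT and triangles CHR-type (TTTGAA) matches on either strand; 12 genes have a square here (the match of Lig1 lies in its further window, which is not drawn), and Rfc4, Rfc5, Pola2, Tyms, Tk1, E2f1, Ccne1 and Chaf1b have no match of any kind in any window.

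Together the members made up between 0.494% and 0.527% of the FPKM sum of a library. Pcna, the sliding clamp, had the highest mean level of the 46 (377 FPKM, 343 to 405 over the libraries), followed by Mcm6 (215 FPKM, 178 to 252), Rrm2 (198 FPKM, 179 to 210) and Mcm2 (189 FPKM, 166 to 207). The ranges of Mcm6, Rrm2 and Mcm2 overlapped each other, while that of Pcna lay above all. The lowest were Gins3 (9.75 FPKM), Orc1 (6.48 FPKM) and Ccne2 (3.54 FPKM). No member varied between libraries by more than Ccne2, whose highest library was 1.68 times its lowest, and Rfc1 varied least, at 1.07 times. Replicates lay close together, with a median absolute log2 difference over the members of 0.046 in B16-F1, 0.055 in the lymph node line and 0.085 in the lung line. In B16-F1R2L, 37 of the 46 members were lower in replicate 2 than in replicate 1 (median log2 difference -0.069), and in B16-F1R2 35 were (-0.045), whereas the median of all tested genes between these replicates was near 0 (0.0010 and 0.0069).

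**Figure D2:**
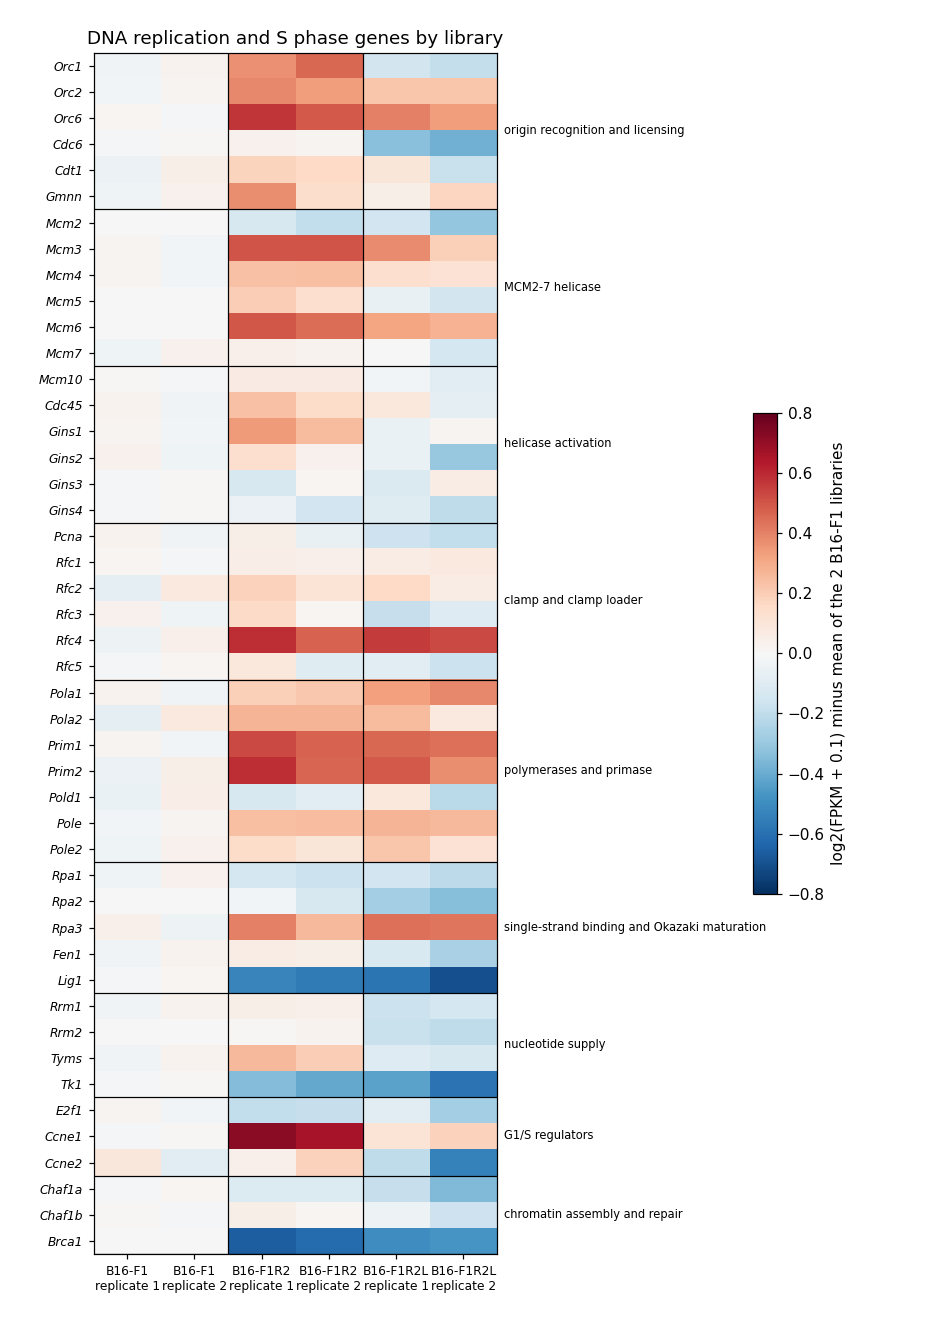
Level of each of the 46 members (rows, grouped by role) in each of the 6 libraries (columns), as log2(FPKM + 0.1) minus the mean of the 2 B16-F1 libraries; red is higher and blue lower than B16-F1. Brca1, Lig1 and Tk1 are blue in all 4 libraries of the variants, and Orc6, Rfc4, Prim1 and Prim2 are red in all 4. Within their own rows, Ccne1 and Orc1 are darkest red in B16-F1R2.

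Melanocyte genes marked all 3 lines. All 7 melanocyte markers examined reached 1 FPKM in at least 1 library, with summed levels of 14970 to 15007 FPKM in the parental line, 7909 to 8125 FPKM in the lymph node line and 8924 to 8933 FPKM in the lung line. Against B16-F1, 6 of the 7 were called lower in B16-F1R2 (median log2 fold change -0.73, lowest -3.70, beside 27.2% of all tested genes). In B16-F1R2L 6 were lower and 1 higher (median -0.63, lowest -2.99, beside 27.1% and 29.5%). Of 6 fibroblast markers 2 reached 1 FPKM in any library, with sums of 0.962 to 1.19 FPKM in B16-F1, 18.1 to 18.3 in the lymph node line and 4.49 to 4.67 in the lung line, and Dcn and Lum were listed at 0 throughout. Leukocyte markers summed to 1.21 to 2.47, 14.7 to 15.5 and 20.1 to 20.3 FPKM with 3 of 9 at 1 FPKM, and Ptprc, Cd3e and Itgam were listed at 0 in all libraries. Most of the leukocyte sum of the variants came from Cd79a, a B cell receptor component, with 0 and 0.059 FPKM in the parental line, 12.7 and 12.4 FPKM in the lymph node line and 17.1 and 15.9 FPKM in the lung line. Endothelial markers summed to 1.55 to 2.38 FPKM with Cdh5, Kdr, Tek and Lyve1 at 0, while Pecam1 went from 0 in both parental libraries to between 0.752 and 1.26 FPKM in the variants and Prox1 from 1.66 and 1.63 FPKM to between 0.790 and 1.16 FPKM. Epithelial markers summed to no more than 0.276 FPKM. The part of these sums in the results below was not tested.

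When the lymph node line was compared with the parental line, more members rose than fell. In B16-F1R2 19 of the 46 members were higher than in B16-F1 at a limma adjusted p under 0.05 (41.3%), while 28.2% of all 11379 tested genes were higher. Only 5 members were lower (10.9%), against 27.2% of all tested genes. The median log2 fold change was 0.10 over the members and 0.0046 over all tested genes. Changes were modest: the fitted differences ran from -0.64 to 0.69 on the log2 scale, and no member reached a change of 1. With 1 library left out, 12 of the 19 rises were kept every time, namely Orc1, Orc2, Orc6, Mcm3, Mcm4, Mcm6, Gins1, Rfc4, Prim1, Prim2, Rpa3 and Ccne1. The number of rises was lowest, at 13 (28.3%), without B16-F1 replicate 1, where 23.1% of all tested genes were higher, and without B16-F1R2 replicate 1, where 22.8% were. Of the 5 falls, Lig1, Tk1 and Brca1 were kept every time, while those of Rpa1 and E2f1 ended without either library of B16-F1 or either library of B16-F1R2, which left 3 falls. A fit without a trend also gave 3 (6.52%, beside 25.9% of all tested genes). In these cultures, a change in the share of cells in S phase and a change in mRNA per cell cannot be told apart, here or in any result below.

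With the FPKM as deposited, the balance in the lung line was even. B16-F1R2L had 13 members higher than B16-F1 (28.3%) and 12 lower (26.1%), beside 29.5% and 27.1% of all tested genes. The median over the members was -0.066 (-0.13 without B16-F1R2L replicate 1 and -0.044 without B16-F1R2L replicate 2) and over all tested genes 0.017. The number of falls was 5 (10.9%, beside 19.2% of all tested genes) without B16-F1 replicate 2, 8 without B16-F1 replicate 1 or B16-F1R2L replicate 2 (17.4%, beside 19.7% and 22.2%), and 17 (37.0%, beside 25%) without B16-F1R2L replicate 1. Both comparisons with B16-F1 used the same 2 B16-F1 libraries, and their values are therefore given side by side and not as separate support.

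Against the lymph node line, the lung line had 12 members lower (26.1%) and 0 higher, where 10.5% and 12.1% of all tested genes were called. At an unadjusted p under 0.05 limma gave 23 lower and 2 higher, Brca1 and Pola1. All tested genes were not counted at that threshold, so these counts cannot be set beside 10.5% and 12.1%. The members' median log2 fold change was -0.13, which became -0.18 without B16-F1R2L replicate 1 and -0.076 without B16-F1R2L replicate 2, and that of all tested genes was 0.022. The count of 12 depended on the fit and on single libraries. It was 21 (45.7%, beside 15.4% of the genes tested) after a correction for GC content and length, and 7 (15.2%, beside 5.71%) when limma was run without a trend. The count was 2 (Orc1 and Ccne1, 4.35%) without B16-F1R2 replicate 1 and 4 (8.70%) without B16-F1R2L replicate 2, where the share of all tested genes called lower dropped too, to 1.37% and 2.16%. Without B16-F1R2L replicate 1 it was 17 (37.0%, beside 9.22%). It was 8 (17.4%) without any 1 of the other 3 libraries, where between 5.58% and 6.95% of all tested genes were lower.

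The scaling of the libraries also mattered for B16-F1R2L, whose summed FPKM over all genes were lower than those of the other lines. Rescaling each library to a sum of 1000000 moved the median of all tested genes to 0.13 in both comparisons of B16-F1R2L, and the members' medians moved with it, to 0.037 against B16-F1 and -0.026 against B16-F1R2. The members called against B16-F1 were then 16 higher (34.8%, beside 35.8% of all genes tested under this scaling) and 6 lower (13.0%, beside 17.6%). Against B16-F1R2 they were 3 higher (Pola1, Rpa3 and Brca1, 6.52%, beside 17.0%) and 5 lower (Orc1, Cdc6, Mcm5, Tyms and Ccne1, 10.9%, beside 4.08%). In the comparison of B16-F1R2 with B16-F1 the same rescaling gave 18 higher (39.1%, beside 26.5%) and 6 lower (13.0%, beside 25.2%). For B16-F1R2L against B16-F1, quantile normalization gave 14 members higher (30.4%, beside 25.1%) and 8 lower (17.4%, beside 31.6%). Median of ratios scaling gave 10 higher there (21.7%, beside 27.8%) and 13 lower (28.3%, beside 29.1%).

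**Figure D3:**
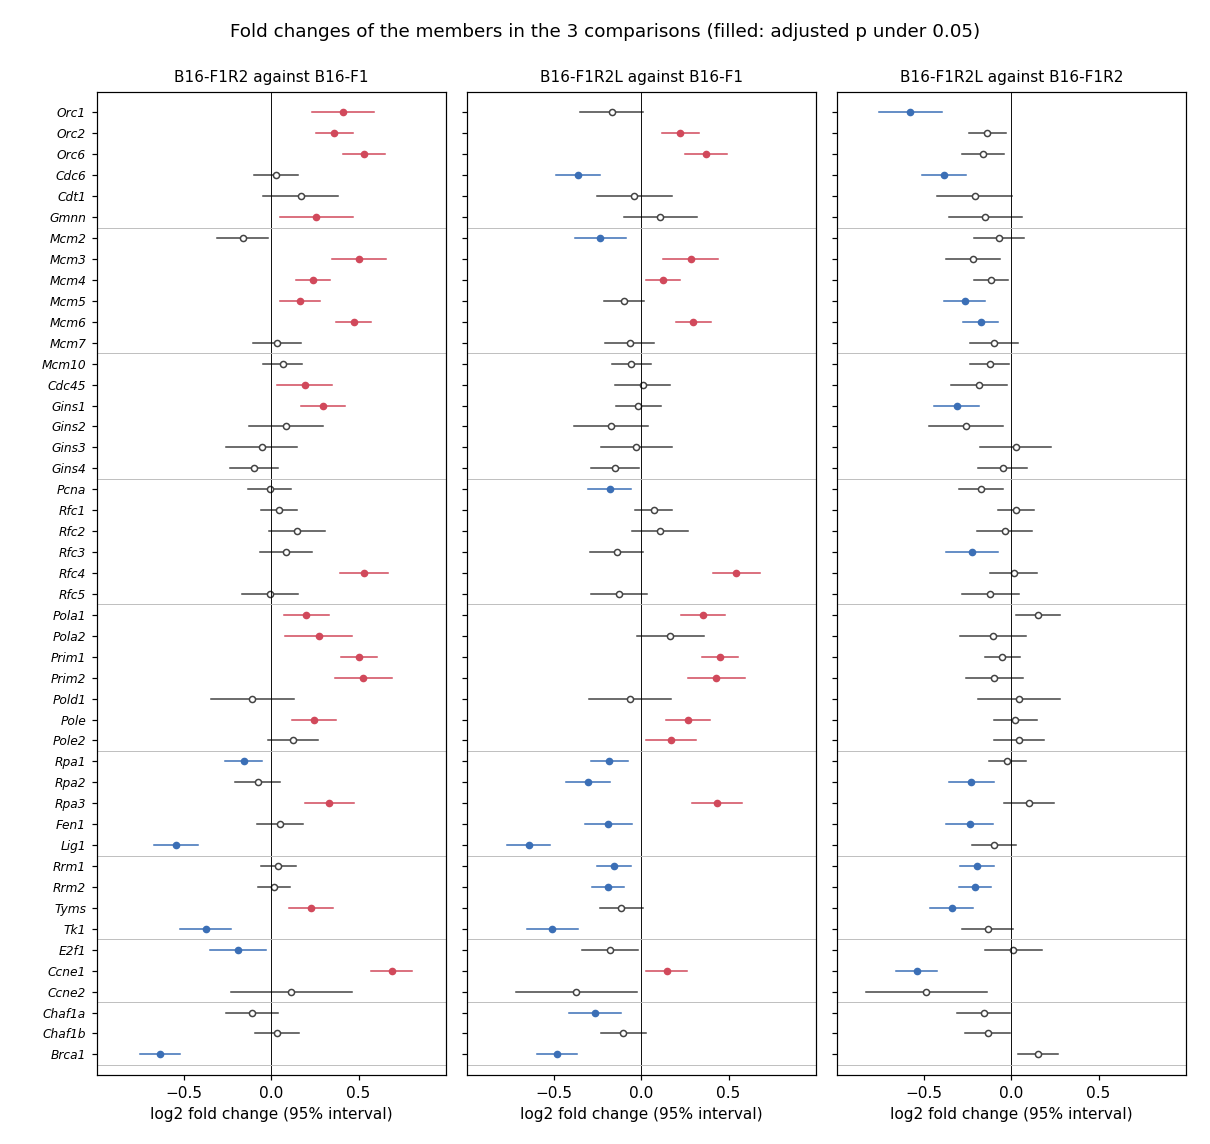
Log2 fold change of each member (rows, in the order of the roles) in the 3 comparisons (panels), with 95% confidence intervals from limma; filled points passed the adjusted p threshold, red higher and blue lower. In the left panel 19 points are red and 5 blue, in the middle panel 13 and 12, and in the right panel 12 are blue and none red.

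Taking the 3 comparisons side by side, 10 members (21.7%) were higher in both variants than in B16-F1 and were not called between the variants, beside 17.4% of all tested genes. These were Orc2, Orc6, Mcm3, Mcm4, Rfc4, Pola1, Prim1, Prim2, Pole and Rpa3. Another 4 members, Rpa1, Lig1, Tk1 and Brca1 (8.70%), were lower in both, beside 16% of all tested genes. Orc1, Mcm5, Gins1 and Tyms were higher in B16-F1R2 than in either other line, although the comparison of B16-F1R2L with B16-F1 was not called for them (8.70% of the members, beside 2.94%). Mcm6 and Ccne1 were called in all 3 comparisons, with B16-F1R2 highest and B16-F1 lowest (4.35%, beside 1.91%). Cdc6, Rpa2, Fen1, Rrm1 and Rrm2 were lower in B16-F1R2L than in each of the other lines, which did not differ by a call (10.9%, beside 2.93%). No comparison called 12 of the members (26.1%, beside 29.1%), among them Cdt1, Mcm7, Gins4, Ccne2 and Chaf1b.

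Origins are marked by ORC and licensed by Cdc6 and Cdt1, with geminin (Gmnn) as the inhibitor of Cdt1. In this group Orc1, Orc2, Orc6 and Gmnn rose in B16-F1R2 against B16-F1, Orc2 and Orc6 rose in B16-F1R2L while Cdc6 fell, and Orc1 and Cdc6 fell in B16-F1R2L against B16-F1R2. Orc6, the smallest ORC subunit, lies on mm9 at chr8:87823531-87832177 (plus strand). Its levels were 35.0 and 34.3 FPKM in the parental line, 51.5 and 48.8 FPKM in the lymph node line and 45.9 and 43.7 FPKM in the lung line. Every library of the variants lay above both B16-F1 libraries. The log2 fold change was 0.53 (SE 0.050, adjusted p = 0.000238) in the lymph node line and 0.37 (SE 0.050, adjusted p = 0.0011) in the lung line, and the difference between the variants was -0.16 (95% interval -0.28 to -0.042, adjusted p = 0.0614).

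Orc1, the ATP-binding subunit whose level is known to change through the cell cycle, measured 5.92 and 6.15 FPKM in the parental line, 7.79 and 8.33 FPKM in the lymph node line and 5.43 and 5.28 FPKM in the lung line. B16-F1R2 stood above the other lines in both of its libraries. Orc1 was higher in the lymph node line than in the parental line by 0.41 (log2, SE 0.075, adjusted p = 0.00403) and lower in the lung line than in the lymph node line by a log2 change of -0.58 (SE 0.075, adjusted p = 0.00704), the largest fall of the 46 in that comparison. B16-F1R2L and B16-F1 differed by -0.17, which did not pass (adjusted p = 0.0966). Cdc6, the loader of the helicase, gave 15.5 and 15.7 FPKM in the parental line, 15.9 and 15.8 FPKM in the lymph node line and 12.3 and 11.9 FPKM in the lung line, so that the lung line alone stood apart. Its log2 fold change was 0.026 in B16-F1R2 against B16-F1 (adjusted p = 0.691), -0.36 in B16-F1R2L against B16-F1 (SE 0.052, adjusted p = 0.00154) and -0.39 against B16-F1R2 (SE 0.052, adjusted p = 0.00811), a call that ended without B16-F1R2 replicate 1. For Cdc6, 12.2% of its stretches of 50 bases occur elsewhere in the genome. Cdt1, the most abundant member of the group, read 59.7 and 63.6 FPKM in the parental line, 69.8 and 68.7 FPKM in the lymph node line and 65.8 and 54.5 FPKM in the lung line. The B16-F1R2L replicates lay far apart and the gene was not called, with a 95% interval of -0.42 to 0.0051 for B16-F1R2L against B16-F1R2.

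The 6 subunits of the MCM2-7 helicase form a ring in equal copies, yet their mRNAs did not move alike. Mcm3, Mcm4, Mcm5 and Mcm6 rose in B16-F1R2 against B16-F1. Mcm3, Mcm4 and Mcm6 rose in B16-F1R2L against B16-F1 while Mcm2 fell, and Mcm5 and Mcm6 fell in B16-F1R2L against B16-F1R2. Mcm2 was the most abundant MCM mRNA in both B16-F1 libraries and Mcm6 in all 4 libraries of the variants, whereas Mcm4 was the lowest in all 6 libraries.

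Mcm6 (chr1:130228168-130256233 on mm9, minus strand) read 179 and 178 FPKM in the parental line, 252 and 243 FPKM in the lymph node line and 223 and 217 FPKM in the lung line. The 3 lines did not overlap. The log2 fold change was 0.47 (SE 0.041, adjusted p = 0.000188) in the lymph node line and 0.30 (SE 0.041, adjusted p = 0.00132) in the lung line against B16-F1, and -0.17 between the variants (adjusted p = 0.0316), the last of which ended without any of the 6 libraries and under rescaling. Mcm3 (chr1:20793055-20810359, minus strand) read 128 and 124 FPKM in the parental line, 179 and 179 FPKM in the lymph node line and 163 and 144 FPKM in the lung line. It rose by 0.50 (log2, SE 0.065, adjusted p = 0.000943) in B16-F1R2 and by 0.28 in B16-F1R2L (SE 0.065, adjusted p = 0.0102, not kept without B16-F1 replicate 2).

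Mcm2 read 206 and 207 FPKM in the parental line, 189 and 180.4 FPKM in the lymph node line and 186 and 166 FPKM in the lung line. All variant libraries lay below those of B16-F1, but the difference passed the threshold for B16-F1R2L (log2 fold change -0.23, SE 0.060, adjusted p = 0.0163) and missed it for B16-F1R2 (-0.16, adjusted p = 0.0569). The call in B16-F1R2L ended without either B16-F1 library, without B16-F1R2L replicate 2 and under quantile normalization. Mcm4 read 48.2 and 46.8 FPKM in the parental line, 55.9 and 56.1 FPKM in the lymph node line and 52.1 and 51.3 FPKM in the lung line, with log2 fold changes of 0.24 (adjusted p = 0.00299) and 0.12 (adjusted p = 0.0381, lost without any of the 6 libraries). Mcm5 read 102.5 and 102.4 FPKM in the parental line, 118 and 112 FPKM in the lymph node line and 98.5 and 92.5 FPKM in the lung line. It was highest in B16-F1R2, by 0.17 over B16-F1 (log2, adjusted p = 0.0244, lost without either B16-F1 library or without B16-F1R2 replicate 1), and B16-F1R2L lay below B16-F1R2 by a log2 change of -0.27 (adjusted p = 0.0147, lost without B16-F1R2 replicate 1 or B16-F1R2L replicate 2). Mcm7 read 134 and 141 FPKM in the parental line, 141 and 140.0 FPKM in the lymph node line and 138 and 125 FPKM in the lung line, and was not called in any comparison (adjusted p = 0.657, 0.348 and 0.247). Mcm7 shares 20.5% of its stretches of 50 bases with another place in the genome and overlaps the microRNA genes Mir25 and Mir93 on its own strand, so its level is uncertain.

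Ratios taken within a library do not depend on the scaling of that library. They were computed after the values had been seen. The ratio of Mcm6 to Mcm2 was 0.869 and 0.859 in the parental line, 1.34 and 1.35 in the lymph node line and 1.20 and 1.30 in the lung line. It was above 1 in all 4 variant libraries and below 1 in both B16-F1 libraries. The ratio of Mcm3 to Mcm7 moved in the same way, from 0.951 and 0.880 to 1.26 and 1.27, and to 1.19 and 1.15. By contrast, the ratio of Mcm6 to Mcm3 overlapped between the lines, with 1.40 and 1.43 in the parental line, 1.41 and 1.36 in the lymph node line and 1.36 and 1.51 in the lung line.

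**Figure D4:**
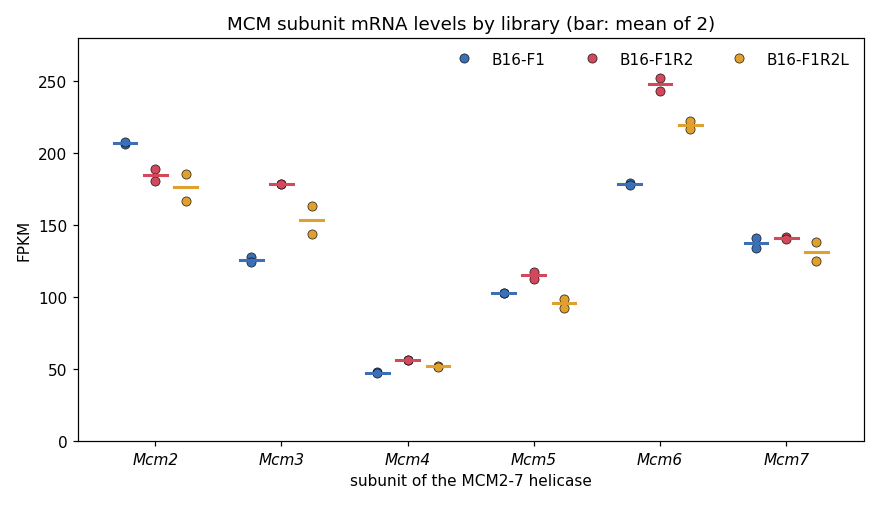
Level of each MCM2-7 subunit mRNA (horizontal axis) in FPKM (vertical axis, from 0); points are the 6 libraries, colored by line, and bars the mean of the 2 libraries of a line. Mcm2 is highest in B16-F1 and Mcm6 in both variants, where Mcm6 lies between 217 and 252 FPKM.

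Helicase activation rests on Mcm10, Cdc45 and the 4 subunits of GINS. Cdc45 and Gins1 rose in B16-F1R2 against B16-F1, Gins1 fell again in B16-F1R2L against B16-F1R2, and no member of the group was called between B16-F1R2L and B16-F1 (at an unadjusted p under 0.05, limma gave Gins4 lower). Gins1 read 30.4 and 29.6 FPKM in the parental line, 37.9 and 35.8 FPKM in the lymph node line and 28.9 and 30.5 FPKM in the lung line. B16-F1R2 was the highest line, by 0.30 over B16-F1 (log2, SE 0.053, adjusted p = 0.0038), and B16-F1R2L was below it by a log2 change of -0.31 (SE 0.053, adjusted p = 0.0131), which was lost without B16-F1R2 replicate 1 and under rescaling. Gins4, the most abundant of the group, read 50.3 and 50.8 FPKM in the parental line, 49.0 and 45.5 FPKM in the lymph node line and 47.3 and 43.9 FPKM in the lung line, and did not pass in any comparison. The rise of Cdc45 (log2 fold change 0.19, adjusted p = 0.0449) ended without any of the 4 libraries compared.

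Among the clamp and its loader, Rfc4 differed most. Rfc4, a small subunit of replication factor C (chr16:23114016-23127810 on mm9, minus strand), read 45.1 and 47.8 FPKM in the parental line, 70.1 and 64.4 FPKM in the lymph node line and 68.4 and 67.2 FPKM in the lung line. The variants overlapped each other and lay well above B16-F1, with log2 fold changes of 0.53 (SE 0.057, adjusted p = 0.000421) and 0.54 (SE 0.057, adjusted p = 0.000379). The ratio of Rfc4 to Rfc5, its partner in the same complex, was 0.722 and 0.751 in B16-F1 and between 1.05 and 1.20 in the 4 variant libraries. Of the stretches of 50 bases of Rfc5, 17.8% occur elsewhere in the genome, so its level and this ratio are uncertain. Exons of Orc1, Orc2, Mcm7, Cdc45, Gins2, Rfc4, Rfc5, Pole, Fen1, Lig1, Tyms, Tk1, Ccne2 and Chaf1a overlap a gene on the opposite strand. The libraries kept the strand, but the sources used here do not state whether it was used in the computation of FPKM, so reads of these genes and their partners may not be separated. Rfc1, Rfc2 and Rfc5 were not called in any comparison, and Rfc3 fell in B16-F1R2L against B16-F1R2 (log2 fold change -0.23, adjusted p = 0.0459, lost without any of the 6 libraries).

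Pcna read 401 and 386 FPKM in the parental line, 405 and 377 FPKM in the lymph node line and 350 and 343 FPKM in the lung line. The first 2 lines overlapped (log2 fold change -0.0088, 95% interval -0.13 to 0.12, adjusted p = 0.896) and B16-F1R2L was lower than B16-F1 (-0.18, SE 0.052, adjusted p = 0.0235). This fall ended without any of the 4 libraries compared and under rescaling, and 52.1% of the stretches of 50 bases of Pcna occur at another place in the genome, which makes its level uncertain.

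In B16-F1R2 against B16-F1, 5 of the 7 polymerase and primase genes rose (Pola1, Pola2, Prim1, Prim2 and Pole, 71.4%, beside 28.2% of all tested genes). In B16-F1R2L 5 were also higher (Pola1, Prim1, Prim2, Pole and Pole2, 71.4%, beside 29.5%), and the median log2 fold changes were 0.24 and 0.27. In B16-F1R2 only the rises of Prim1 and Prim2 were kept with each library left out, whereas those of Pola1 and Pola2 each ended under 3 of the 6 omissions and that of Pole without B16-F1 replicate 1. In B16-F1R2L the rises of Pola1, Prim1, Prim2 and Pole were kept with each library left out, and that of Pole2 ended under 5 of the 6. Of the 7, Pold1, the catalytic subunit of polymerase delta, had no call, and between the variants limma called none of them (at an unadjusted p under 0.05, Pola1 higher). Prim1, the catalytic subunit of primase, read 59.0 and 57.4 FPKM in the parental line, 84.1 and 80.9 FPKM in the lymph node line and 80.2 and 79.1 FPKM in the lung line. Its partner Prim2 read 34.1 and 36.4 FPKM in the parental line, 53.1 and 48.7 FPKM in the lymph node line and 49.5 and 45.7 FPKM in the lung line. All 4 variant libraries exceeded both B16-F1 libraries for each primase subunit. Prim1 rose by 0.50 (log2, SE 0.042, adjusted p = 0.000154) and 0.45 (SE 0.042, adjusted p = 0.000241), and Prim2 by 0.53 (SE 0.067, adjusted p = 0.000913) and 0.43 (SE 0.067, adjusted p = 0.00215). The catalytic subunit of polymerase alpha, Pola1, had its highest levels in B16-F1R2L, where it read 18.8 and 19.6 FPKM against 15.3 and 14.7 FPKM in B16-F1 (log2 fold change 0.36, adjusted p = 0.00169).

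Replication protein A covers single-stranded DNA as a trimer of Rpa1, Rpa2 and Rpa3, and its subunits moved in opposite directions. Rpa1 read 136 and 143 FPKM in the parental line, 126 and 124 FPKM in the lymph node line and 125 and 121 FPKM in the lung line, with log2 fold changes of -0.16 (SE 0.044, adjusted p = 0.0219) and -0.18 (SE 0.044, adjusted p = 0.0128). Rpa3 read 68.5 and 65.0 FPKM in the parental line, 88.4 and 79.9 FPKM in the lymph node line and 90.6 and 89.9 FPKM in the lung line, with log2 fold changes of 0.33 (SE 0.059, adjusted p = 0.00363) and 0.44 (SE 0.059, adjusted p = 0.00116). The ratio of Rpa3 to Rpa1 was 0.503 and 0.456 in the parental line, 0.701 and 0.647 in the lymph node line and 0.724 and 0.746 in the lung line, without overlap between B16-F1 and the variants. The falls of Rpa1 were the less firm: the B16-F1R2 call ended without any of the 4 libraries compared and under quantile normalization, and the B16-F1R2L call without B16-F1 replicate 2 or B16-F1R2L replicate 2 and under rescaling. For Rpa3, 16.6% of its stretches of 50 bases occur elsewhere in the genome. Rpa2 read 46.4 and 46.3 FPKM in the parental line, 45.6 and 42.3 FPKM in the lymph node line and 38.4 and 36.6 FPKM in the lung line, and fell in B16-F1R2L against B16-F1 (-0.31, SE 0.053, adjusted p = 0.00338).

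Lig1, the ligase that joins Okazaki fragments (chr7:13862632-13896782 on mm9, plus strand), was the most reduced member in B16-F1R2L. It read 81.7 and 83.2 FPKM in the parental line, 57.2 and 55.7 FPKM in the lymph node line and 54.9 and 50.6 FPKM in the lung line. The log2 fold change was -0.55 (SE 0.051, adjusted p = 0.000244) in the lymph node line and -0.65 (SE 0.051, adjusted p = 0.000121) in the lung line. Fen1, the flap nuclease that acts just before the ligase, did not follow Lig1 in B16-F1R2 (0.050, adjusted p = 0.472), and the ratio of Lig1 to Fen1 was 1.19 and 1.17 in the parental line, 0.789 and 0.774 in the lymph node line and 0.855 and 0.867 in the lung line. In B16-F1R2L Fen1 fell against B16-F1 (-0.19, adjusted p = 0.0265), a call lost without either B16-F1 library, without B16-F1R2L replicate 2 and under rescaling.

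Among the 4 members of nucleotide supply, Tk1 fell and Tyms rose in B16-F1R2 against B16-F1. Thymidine kinase 1 (Tk1), which salvages thymidine, read 201 and 204 FPKM in the parental line, 159 and 153 FPKM in the lymph node line and 150.4 and 135 FPKM in the lung line. It fell in both variants, with log2 fold changes of -0.38 (SE 0.060, adjusted p = 0.00239) and -0.51 (SE 0.060, adjusted p = 0.000659). Thymidylate synthase (Tyms), which makes thymidylate anew, read 19.8 and 20.5 FPKM in the parental line, 24.1 and 23.1 FPKM in the lymph node line and 18.8 and 18.4 FPKM in the lung line. It rose in B16-F1R2 (0.23, SE 0.051, adjusted p = 0.00978, lost without B16-F1 replicate 1 or B16-F1R2 replicate 1) and was lower in the lung line than in the lymph node line (-0.34, SE 0.051, adjusted p = 0.00968, lost without B16-F1R2 replicate 1 or B16-F1R2L replicate 2). The ratio of Tk1 to Tyms was 10.2 and 9.93 in the parental line, 6.60 and 6.62 in the lymph node line and 8.00 and 7.30 in the lung line, so that the lines did not overlap. Shares of 24.8% of the stretches of Tk1 and 18.2% of those of Tyms occur elsewhere in the genome.

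Ribonucleotide reductase, which turns ribonucleotides into deoxyribonucleotides, was almost level between B16-F1 and B16-F1R2. Rrm2 read 205 and 206 FPKM in the parental line, 207 and 209.6 FPKM in the lymph node line and 182 and 179 FPKM in the lung line. The difference between the first 2 lines was 0.017 (log2, 95% interval -0.075 to 0.11, adjusted p = 0.725), and B16-F1R2L was lower than B16-F1 by a log2 change of -0.19 (adjusted p = 0.00602) and lower than B16-F1R2 by -0.21 (adjusted p = 0.0159). Rrm1 moved by -0.16 (adjusted p = 0.0173) and -0.20 (adjusted p = 0.0219). All of these calls of Rrm1 and Rrm2 ended under rescaling and under quantile normalization, and the ratio of Rrm2 to Rrm1 stayed between 1.41 and 1.49 in all 6 libraries.

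Among the G1/S regulators, cyclin E1 (Ccne1, chr7:38883003-38892553 on mm9, minus strand), the partner of Cdk2 at S phase entry, gave the largest rise of the 46. It read 28.0 and 28.4 FPKM in the parental line, 46.5 and 44.6 FPKM in the lymph node line and 30.4 and 32.0 FPKM in the lung line. B16-F1R2 stood far above both other lines. The log2 fold change was 0.69 against B16-F1 (SE 0.049, adjusted p = 7.71e-05), and B16-F1R2L was lower than B16-F1R2 by -0.54 (SE 0.049, adjusted p = 0.0028), both of which were kept with each library left out and under all 3 other scalings. B16-F1R2L exceeded B16-F1 by 0.15 (SE 0.049, adjusted p = 0.0404), a call lost when either library of B16-F1 or of B16-F1R2, or B16-F1R2L replicate 2, was left out. Cyclin E2 (Ccne2) was much less abundant and read 3.96 and 3.49 FPKM in the parental line, 3.83 and 4.24 FPKM in the lymph node line and 3.21 and 2.53 FPKM in the lung line. It was not called, and its interval between the variants ran from -0.83 to -0.14 (adjusted p = 0.0548). E2f1, the activating E2F factor, read 36.5 and 35.4 FPKM in the parental line, 31.3 and 31.6 FPKM in the lymph node line and 33.8 and 29.8 FPKM in the lung line. It was slightly lower in B16-F1R2 (log2 fold change -0.19, SE 0.067, adjusted p = 0.0468), a call lost without any of the 4 libraries compared and under 2 of the 3 other scalings, and -0.18 in B16-F1R2L did not pass (adjusted p = 0.0572). The change in B16-F1R2L was -0.27 without B16-F1R2L replicate 1 and -0.089 without B16-F1R2L replicate 2.

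Brca1, which acts in the repair of broken forks (chr11:101350078-101413269 on mm9, minus strand), was the most reduced member in B16-F1R2. It read 25.4 and 25.3 FPKM in the parental line, 16.04 and 16.5 FPKM in the lymph node line and 18.0 and 18.2 FPKM in the lung line. The variants lay below B16-F1 and did not overlap each other. The log2 fold change was -0.64 (SE 0.048, adjusted p = 9.68e-05) in the lymph node line and -0.48 (SE 0.048, adjusted p = 0.000302) in the lung line, and 0.15 between the variants did not pass (adjusted p = 0.0647). Chaf1b, a subunit of the chromatin assembly factor that places histones behind the fork, read 57.6 and 57.0 FPKM in the parental line, 59.2 and 57.9 FPKM in the lymph node line and 55.8 and 51.0 FPKM in the lung line, and was not called. Its partner Chaf1a fell in B16-F1R2L against B16-F1 (-0.27, adjusted p = 0.0107, lost without B16-F1 replicate 2 and under rescaling).

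Genes of the same pathways that are not among the 46 were counted from lists chosen with the members. In B16-F1R2 against B16-F1, where 28.2% of all tested genes were higher and 27.2% lower, the 28 other replication factors gave 15 higher (53.6%) and 4 lower (14.3%). Of 10 other genes of nucleotide supply 8 were higher and 0 lower (limma gave 9 and 0 at an unadjusted p under 0.05). The 31 mitosis and G2/M genes gave 12 higher (38.7%) and 1 lower (3.23%), and the 21 other genes of S phase chromatin and repair 9 higher (42.9%) and 5 lower (23.8%). In B16-F1R2L against B16-F1, where the shares of all tested genes were 29.5% and 27.1%, the lists in this order gave 11 higher (39.3%) and 5 lower (17.9%), 5 and 1, 11 (35.5%) and 6 (19.4%), and 8 (38.1%) and 5 (23.8%). Between the variants 12.1% of all tested genes were higher and 10.5% lower in the lung line. The other replication factors gave 1 higher and 5 lower (17.9%), nucleotide supply 1 and 2, the mitosis list 0 and 7 (22.6%), and chromatin and repair 0 and 4. At an unadjusted p under 0.05 limma gave 1 higher and 9 lower for the mitosis list and 4 and 4 for chromatin and repair. All tested genes were not counted at the unadjusted threshold, here or for nucleotide supply above. These list counts also rested on single libraries, and fewer of all tested genes were called too in each fit given next. In B16-F1R2 against B16-F1, the other replication factors that were higher numbered 8 without B16-F1 replicate 1, and those of nucleotide supply 4 without B16-F1 replicate 2. In B16-F1R2L against B16-F1, 7 other replication factors were higher without B16-F1 replicate 1, and 3 mitosis genes were lower without B16-F1 replicate 2. Between the variants, with any 1 of the 6 libraries left out, the genes that were lower ran from 0 to 3 for the other replication factors, from 1 to 2 for nucleotide supply, from 2 to 4 for the mitosis list and from 1 to 2 for chromatin and repair, each lowest without B16-F1R2 replicate 1. Their medians were 0.19, 0.29, 0.11 and 0.099 on the log2 scale in B16-F1R2 against B16-F1 for the other replication factors, nucleotide supply, mitosis and chromatin lists in turn, each above the 0.0046 of all tested genes.

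**Figure D5:**
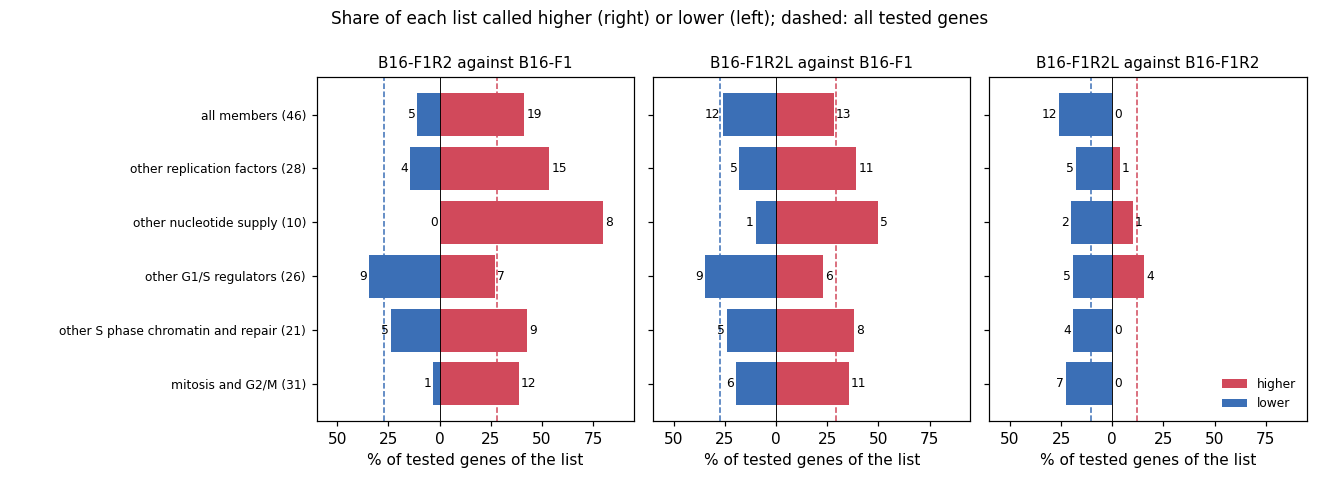
Share of the tested genes of each list (rows, number of tested genes in brackets) that was higher (red, to the right) or lower (blue, to the left) in each of the 3 comparisons, in percent, with the number of genes at each bar. Dashed lines give the shares over all 11379 tested genes; the bar for members higher in B16-F1R2 (41.3%) passes its line at 28.2%, and in the right panel 12 members are lower and none higher.

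Of the replication factors outside the 46, Wdhd1, which links the helicase to polymerase alpha, had the largest rise in B16-F1R2 against B16-F1. It read 11.6 and 12.2 FPKM in the parental line, 21.1 and 21.4 FPKM in the lymph node line and 18.3 and 18.3 FPKM in the lung line (log2 fold change 0.83, SE 0.052, adjusted p = 4.82e-05 in B16-F1R2, and 0.62 in B16-F1R2L). In B16-F1R2L against B16-F1 the rises of Mtbp (0.78) and Mcm8 (0.67) were larger than that of Wdhd1. Pole4, a small subunit of polymerase epsilon, fell from 133 and 132 FPKM in the parental line to 77.7 and 72.9 FPKM in the lymph node line and 75.2 and 73.8 FPKM in the lung line (log2 fold change -0.82, SE 0.045, adjusted p = 2.9e-05, and -0.83, adjusted p = 2.57e-05). Pole, the catalytic subunit of the same enzyme, rose in both variants by 0.24 and 0.27 on the log2 scale. Dna2, a nuclease of Okazaki fragment processing, read 7.65 and 6.74 FPKM in the parental line, 8.85 and 8.54 FPKM in the lymph node line and 6.25 and 6.30 FPKM in the lung line, and was lower in the lung line than in the lymph node line (-0.46, adjusted p = 0.0147). So was the mitotic activator Cdc20 (-0.43, adjusted p = 0.00303), which read 80.1 and 80.2 FPKM in the parental line, 95.2 and 92.6 FPKM in the lymph node line and 70.6 and 69.0 FPKM in the lung line. Rrm2b, the subunit of ribonucleotide reductase known from resting and damaged cells, rose from 4.002 and 3.501 FPKM in the parental line to 4.94 and 5.03 FPKM in the lymph node line and 7.14 and 7.40 FPKM in the lung line, and the variants differed by 0.54 (log2, adjusted p = 0.0134).

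Of 26 other G1/S regulators that passed the filter, the lymph node line had 7 higher (26.9%) and 9 lower (34.6%) than the parental line, near the 28.2% and 27.2% of all tested genes. The lung line had 6 higher (23.1%, beside 29.5%) and 9 lower (34.6%, beside 27.1%), and against the lymph node line 4 higher (15.4%, beside 12.1%) and 5 lower (19.2%, beside 10.5%). Fewer of all tested genes were also called in each fit without a library that is given next, in the direction named. With 1 library left out, the first comparison gave as few as 4 higher (without B16-F1 replicate 2), the second as few as 4 higher and 5 lower (both without B16-F1 replicate 1), and the third from 1 to 4 higher and from 1 to 3 lower (both lowest without B16-F1R2 replicate 1). Cyclin D1 (Ccnd1), which drives G1, read 64.5 and 63.7 FPKM in the parental line, 33.9 and 33.2 FPKM in the lymph node line and 22.1 and 21.4 FPKM in the lung line. The 3 lines were far apart, with log2 fold changes of -0.93 (SE 0.043, adjusted p = 1.43e-05), -1.56 (SE 0.043, adjusted p = 1.98e-06) and, between the variants, -0.63 (adjusted p = 0.00133). Cyclin D3 (Ccnd3) fell from 186 and 189 FPKM to 112 and 112 FPKM in the lymph node line and 103 and 95.3 FPKM in the lung line (log2 fold change -0.93 in B16-F1R2L, adjusted p = 2e-05).

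Myc, a transcription factor that promotes S phase entry, rose from 17.3 and 18.0 FPKM in the parental line to 34.7 and 42.1 FPKM in the lymph node line and 40.9 and 36.0 FPKM in the lung line, by 1.11 and 1.12 on the log2 scale (SE 0.10, adjusted p = 0.000241 and 0.000238). The retinoblastoma gene Rb1 rose from 4.30 and 3.93 FPKM to 5.72 and 5.74 FPKM and to 7.88 and 9.39 FPKM (0.47, adjusted p = 0.0094, and 1.05, adjusted p = 0.000325). Cdk2, the kinase of cyclin E, read 247 and 249 FPKM in the parental line, 191 and 194 FPKM in the lymph node line and 252 and 266 FPKM in the lung line. It was thus lowest in the line where Ccne1 was highest, with log2 fold changes of -0.37 in B16-F1R2 against B16-F1 (adjusted p = 0.000674) and 0.43 between the variants (adjusted p = 0.00379).

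Inhibitors of cyclin-dependent kinases went different ways. Cdkn2c, which blocks the cyclin D kinases, fell from 46.8 and 47.0 FPKM in the parental line to 21.5 and 24.0 FPKM in the lymph node line and 22.9 and 19.8 FPKM in the lung line (log2 fold change -1.04, SE 0.084, adjusted p = 0.000134, and -1.14, adjusted p = 9.12e-05). Cdkn1a (p21) was not called in any comparison and read between 40.6 and 47.4 FPKM in all 6 libraries. Cdkn1c was at 0.051 and 0 FPKM in the parental line, 2.11 and 1.62 FPKM in the lymph node line and 2.00 and 1.76 FPKM in the lung line. It was called higher in both variants, and no fold is given because a B16-F1 library is listed at 0. Cdkn2a and Cdkn2b were listed at 0 in all 6 libraries.

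The promoter letters were set beside the changes. In B16-F1R2 against B16-F1 (28.2% of all tested genes higher, 27.2% lower), the 13 members with an E2F-type match had a median log2 fold change of 0.12 (5 higher and 1 lower), the 24 with a window and no match 0.043 (9 higher and 4 lower), and the 9 without a window 0.24 (5 higher and 0 lower). In B16-F1R2L against B16-F1 (29.5% and 27.1%) the medians were -0.065 (4 higher and 2 lower), -0.12 (6 and 10) and 0.11 (3 and 0). Against B16-F1R2, where 10.5% of all tested genes were lower, B16-F1R2L gave medians of -0.17 (5 of 13 lower), -0.13 (6 of 24) and -0.11 (1 of 9). Orc1, with a match from 27 to 20 bases before its start site, and Ccne1, with none in its window, were the firmest falls between the variants.

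The 46 genes lie on 15 chromosomes, and their changes were set beside those of the genes around them. For each member the next 5 tested genes on each side were taken, in the order of the mm9 positions of the symbols. Rfc3 had only 5 neighbours, all on the same side, and was kept in the correlations below. This comparison was added after the values had been seen. The median change of the neighbours was close to that of Lig1 in B16-F1R2 against B16-F1 (-0.53 against -0.55 on the log2 scale, 8 of 10 neighbours lower) and of Tk1 (-0.49 against -0.38, 7 of 10 lower). These neighbours include 6330408A02Rik for Lig1 and Afmid for Tk1, whose exons overlap those of the member on the opposite strand. Around Mcm2, 9 of 10 neighbours were lower with a median of -0.54, a larger fall than that of Mcm2 itself (-0.16). Around Mcm6, 7 of 10 were higher, with a median of 0.38 against 0.47, and around Ccne1 5 of 10 were higher, with a median of 0.36 against 0.69.

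Other members moved apart from their neighbours. Rfc4 rose by 0.53 where its neighbours had a median log2 fold change of -0.18, Orc6 by 0.53 against -0.093, and Mcm3 by 0.50 against -0.044. Brca1 changed by -0.64 and its neighbours by -0.15. Over the 46 members, Pearson's r between a member's change and the median of its neighbours was 0.56 in B16-F1R2 against B16-F1 (Spearman's rho 0.43), 0.56 in B16-F1R2L against B16-F1 (rho 0.54) and 0.020 in B16-F1R2L against B16-F1R2 (rho 0.00080). The first 2 values share the B16-F1 libraries, and the points of each share all of their libraries, so these are descriptions. The part of a gene's position in its change was not tested.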

How the data were processed

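The labels describe 6 libraries of polyadenylated RNA, 2 for each of 3 melanoma lines, sequenced as single reads of 50 bases on a HiSeq2500. The authors aligned them to mm9 (NCBI37) with TopHat 2.0.10 and Bowtie 1.0.0, with 2 mismatches and up to 20 positions per read, and deposited FPKM for 23951 genes. The submitters' processing notes name Cuffnorm; the gene annotation is not given in the sources used here. The table holds no read counts, so the depth behind each value was not computed and no counting interval is given.

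Genes entered the test when 2 or more libraries reached 1 FPKM (11379 genes). Their log2(FPKM + 0.1) was fitted by limma (version 3.58.1, R 4.3.3, eBayes with a trend) over all 6 libraries and without a replicate block. P-values were adjusted by Benjamini-Hochberg over all tested genes, and 0.05 was the threshold. Fold changes are on this scale and understate those of low genes. DESeq2, which the authors used, needs counts. On simulated data for 11379 genes, modelled on B16-F1R2 against B16-F1, 95 of 100 genes changed by 1 on the log2 scale and 61 of 100 changed by less were recovered, with 4 others called. No other genes were changed in the simulation, a far smaller share than was called in the data, so these rates need not hold there.

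The members and lists were chosen with earlier results of these data known. Full values are given in each comparison for the 5 members called higher and the 5 called lower with the largest changes, for Mcm2 to Mcm7, Pcna, E2f1, Ccne1 and Ccne2, for the most abundant member of each role, for the 3 called genes of the other lists with the largest rise and the 3 with the largest fall, and for Cdkn1a, Ccnd1 and Myc. Other genes named were chosen after their values were seen. Positions and shared stretches of 50 bases were taken from the annotated NCBIM37 assembly by gene symbol, and promoters from RefSeq on GRCm38.p6.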

Additional observations from a re-analysis of the deposited data

Results flagged for a closer look

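The effects of the variants against B16-F1 differed for 12 members, by the test of B16-F1R2L against B16-F1R2 itself (limma, Benjamini-Hochberg adjusted p under 0.05, where 10.5% of all tested genes were lower). The log2 fold changes were -0.58 for Orc1, -0.54 for Ccne1, -0.39 for Cdc6, -0.34 for Tyms, -0.31 for Gins1, -0.27 for Mcm5, -0.24 for Fen1, -0.23 for Rpa2, -0.23 for Rfc3, -0.21 for Rrm2, -0.20 for Rrm1 and -0.17 for Mcm6. Orc1 and Ccne1 kept their calls with each library left out and under the 3 other scalings, while Cdc6, Mcm5 and Tyms kept theirs under the scalings and the other 7 lost it under at least 1 of them.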

How the results depend on the processing

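Over the 12 alternatives other than leaving out 1 library, 408 of 466 values of named genes kept their direction and side of the threshold in B16-F1R2 against B16-F1, 397 of 466 in B16-F1R2L against B16-F1 and 320 of 383 in B16-F1R2L against B16-F1R2. A minimum log2 change of 1 left 0 members called in every comparison. Without a trend, members lower were 3 in B16-F1R2 against B16-F1 and 7 in B16-F1R2L against B16-F1R2 (25.9% and 5.71% of all tested genes). Rescaling to a sum of 1000000 gave 6 lower in B16-F1R2L against B16-F1, and 3 higher and 5 lower between the variants, where a correction for GC content and length gave 21 lower (45.7%, beside 15.4% of all genes tested). With 1 library left out, members higher ran from 13 to 20 and lower from 3 to 6 in B16-F1R2 against B16-F1, from 9 to 11 and from 5 to 17 in B16-F1R2L against B16-F1, and from 0 to 0 and from 2 to 17 between the variants.

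With a replicate block, members higher and lower were 18 and 6 (27.6% and 26.7% of all tested genes), 10 and 12 (29% and 26.6%), and 0 and 14 (10.7% and 9.70%). The labels number the replicates, but over all tested genes the deviations of libraries of the same number were only weakly correlated (0.052, -0.10 and 0.079), although most members were lower in replicate 2 of both variants (35 and 37 of 46). Only 2 numbers exist. The cause of each change given here was not tested.

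Values that changed sign were close to 0 and not called. Quantile normalization gave log2 fold changes of -0.046 for Ccne2 in B16-F1R2 against B16-F1, 0.078 for Mcm7 and 0.049 for Cdt1 in B16-F1R2L against B16-F1, and 0.030 for Mcm2, 0.013 for Prim1 and 0.034 for Rpa1 between the variants. The GC content and length correction gave -0.046 for Ccne2 and -0.039 for Rrm2, then 0.015 for Mcm7 and 0.042 for Cdt1, and 0.038 for Gins4, in the same order of comparisons. Rescaling gave 0.0014 for Mcm5, 0.035 for Mcm7, 0.062 for Cdt1, 0.00044 for Chaf1b and 0.0038 for Cdkn1a in B16-F1R2L against B16-F1, and 0.039 for Mcm2, 0.0087 for Mcm7, 0.058 for Gins4, 0.057 for Prim1 and 0.085 for Rpa1 between the variants. Median of ratios scaling gave -0.0075 for E2f1 and -0.014 for Myc between the variants. With 1 library left out, log2 fold changes ran from -0.0028 to 0.067 for Mcm7 and from -0.062 to 0.044 for Pcna in B16-F1R2 against B16-F1, from -0.14 to 0.0029 for Mcm7 and from -0.18 to 0.095 for Cdt1 in B16-F1R2L against B16-F1, and from -0.15 to 0.0086 for Mcm2, from -0.10 to 0.0048 for Gins4, from -0.050 to 0.0028 for Rpa1, from -0.078 to 0.10 for E2f1 and from -0.13 to 0.15 for Myc between the variants.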
